A study of Arabidopsis thaliana with 4 samples.

Results

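Methionine sulfoxide reductases B (MSRB) are the enzymes described here, through the probe sets annotated to 1 gene whose symbol begins with MSRB or whose locus is AT4G04830, AT4G04840, AT4G21830, AT4G21840 or AT4G21850. The rule found 4 genes, each with 1 probe set, out of 13350 genes that could be named on the array: MSRB3 (AT4G04800), MSRB5 (AT4G04830), MSRB6 (AT4G04840) and MSRB9 (AT4G21850). The reference gene table lists 9 MSRB genes of Arabidopsis thaliana, and the other 5, MSRB1, MSRB2, MSRB4, MSRB7 and MSRB8, were not analysed here. The family was taken up because MSRB6 was among the genes with the largest decreases of this same comparison, so the values of MSRB6 are a description and carry no test.

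Transcripts of whole shoots (aerial parts, total RNA, age 2 weeks) were measured on 4 arrays. The control group is 2 arrays of Columbia and the other group 2 arrays of jaw-D. In jaw-D, an activation-tagged line, the inserted enhancers lead to excess miR319a, a microRNA that lowers transcripts of several TCP factors, which limit leaf growth. All plants were of the same age and organ, the mutant is 1 line, and the labels name no treatment. The comparison asks which transcripts differ between jaw-D and control plants.

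Methionine residues in proteins are oxidised to methionine sulfoxide by reactive oxygen species, and this damage is reversed by methionine sulfoxide reductases. Enzymes of the B class act on the R form of the sulfoxide and those of the A class (MSRA) on the S form. Both classes are then reduced again by thioredoxins or, for some of them, glutaredoxins, which links the repair to light-driven electron transport in plastids and to NADPH in the cytosol. In Arabidopsis MSRB1 and MSRB2 are plastid enzymes and MSRB3 is found in the endoplasmic reticulum. All of the genes but MSRB1 lie in 2 tandem groups on chromosome 4.

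The deposited values are linear intensities that share a trimmed mean of 2500.2 units on each of the 4 arrays, with medians of 1032.1 to 1146.1 units. Unless deposited units are named, intensities below are quantile-normalised units, and log2 differences are jaw-D minus control on the scale log2(value + 302.3), which understates the change of dim probe sets. The correlation of log2 intensities over probe sets was 0.99 within control, 0.992 within jaw-D and 0.979 to 0.984 between groups, the arrays of each pair sharing their probe sets and platform. Of the leaf markers listed for a check of the organ, 3 of 10 could be named. Rubisco activase (RCA) and the antenna genes LHCB4.1 and LHCB4.2 lay at group means of 38105 to 79086 units. Of the root markers 2 of 6 could be named, EXPA18 with means of 572 (control) and 433 units (jaw-D) and EXPA7 with means of 313 and 304 units. None of these 5 markers passed the test (0 by limma after adjustment, 1 at an unadjusted p under 0.05), and no flower or seed marker could be named.

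MSRB6 was the member that differed most. Its intensity was 4617 and 4853 units on the control arrays and 1689 and 1477 units on the jaw-D arrays. Both jaw-D arrays lay far below both control arrays, and the difference between the groups was many times the difference within either. The group means were 4735 ± 166 and 1583 ± 150 units (SD, n = 2 each), a 2.99-fold lower level in jaw-D and a log2 difference of -1.42 ± 0.10 (SE). In deposited units, before quantile normalisation, the values were 4493.2 and 4818.9 in control and 1741.1 and 1543.6 in jaw-D. Over the 22746 probe sets tested, 38 had a difference as low as that of MSRB6 or lower, which is 0.167% of them. The arrays hold RNA of all aerial tissues together, so that fewer cells with the transcript and less transcript per cell cannot be told apart.

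MSRB5, the protein-coding locus before MSRB6 on the chromosome, differed far less. Its intensity was 1922 and 2248 units in control and 1742 and 1886 units in jaw-D. The groups were separate by a gap that was smaller than the difference between the control arrays, and the log2 difference was -0.17 ± 0.12. Of all probe sets, 42.8% had an absolute difference at least as large.

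MSRB3, the reductase of the endoplasmic reticulum, had 1249 and 1483 units in control and 1272 and 925 units in jaw-D. The first jaw-D array lay between the control arrays and the second below both, so the groups overlapped. The log2 difference was -0.26 ± 0.17, and 25.7% of all probe sets had one at least as large in absolute size. With 1 array left out in turn, the difference of MSRB3 lay between -0.44 and -0.08, and that of MSRB5 between -0.27 and -0.07.

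MSRB9, of the second tandem group, had 3396 and 3681 units in control and 3842 and 3582 units in jaw-D. The groups overlapped, with a log2 difference of 0.06 ± 0.09. An absolute difference at least as large was found in 73.9% of all probe sets.

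**Figure D1:**
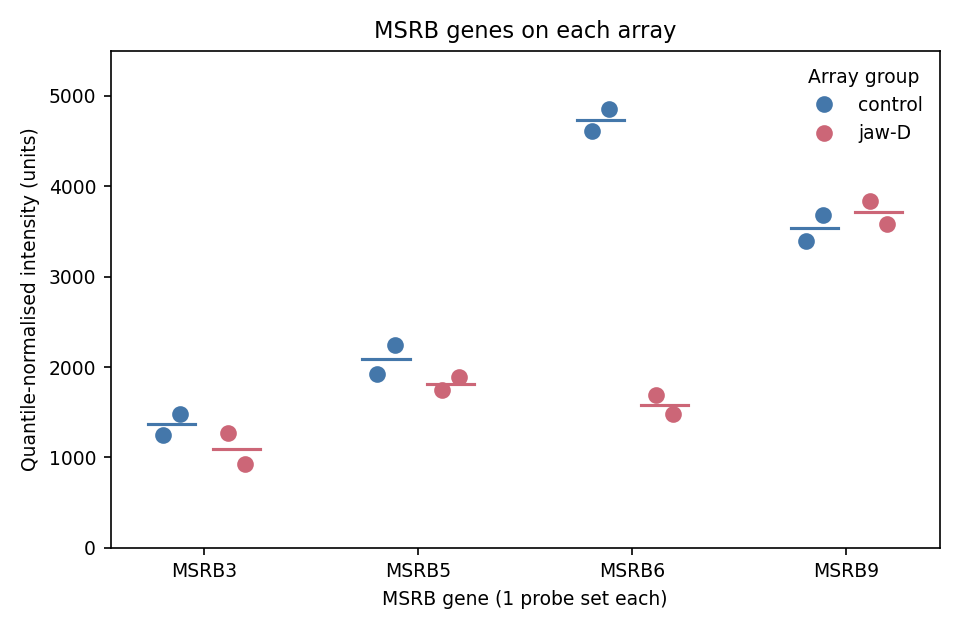
Quantile-normalised intensity (linear units) of the 4 MSRB genes on the 2 control and the 2 jaw-D arrays, with points for single arrays and horizontal lines for group means. MSRB6 lies at 4617 and 4853 units in control against 1689 and 1477 in jaw-D. Within each of the other genes, control and jaw-D values lie closer to each other. Levels of different genes come from different probes and are not to be set against each other.

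None of the 4 members was near background, taken as 352.6 deposited units, the highest value of the 27 Bacillus subtilis control probe sets. The median log2 difference of the members was -0.22, beside 0.01 over all probe sets. In the limma fit across all probe sets (adjusted p under 0.05 by Benjamini-Hochberg), 1 of the 4 members, MSRB6, was called, beside 4.19% of all probe sets called. The values of the groups did not overlap for 2 of the 4, MSRB5 and MSRB6, beside 49.0% of all probe sets. As the family was chosen from this contrast, nothing is read from these counts. With any 1 array left out MSRB6 kept a log2 difference between -1.51 and -1.35 but was not called, in fits that called 0 to 12 probe sets in all (3347 to 4381 at an unadjusted p under 0.05).

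MSRB6 stands in a tandem group of 4 MSRB genes on chromosome 4, in the order MSRB3, MSRB4, the pseudogene AT4G04820, MSRB5 and MSRB6. Around this group 4 of the other loci from AT4G04780 to AT4G04890 had a named probe set, and none passed the test (0 by limma after adjustment, 0 at an unadjusted p under 0.05). DER2.2, a derlin gene of protein quality control in the endoplasmic reticulum and the nearest measured gene beyond MSRB6, had 3369 and 2835 units in control and 3364 and 3456 in jaw-D. Its groups overlapped, with a log2 difference of 0.13 (95% interval -0.13 to 0.39, adjusted p 0.576). AT4G04790 differed by 0.15 (adjusted p 0.663) and AT4G04880 by -0.04 (adjusted p 0.924). The pseudogene AT4G04820 was near background, at 33.3 to 56.5 units, on a probe set whose name marks probes shared with similar transcripts. KEA3, the protein-coding locus after MSRB6, and MSRB4 were not analysed here.

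The second group holds MSRB7, MSRB8, MSRB9 and MSRB2 as consecutive protein-coding loci. Of the other loci from AT4G21800 to AT4G21890, 7 had a named probe set, and their log2 differences ran from -0.31 to 0.28. None of the 7 passed the test (0 by limma after adjustment, 1 at an unadjusted p under 0.05). The one with the smallest p, AT4G21870, had 12472 and 12316 units in control and 14618 and 14066 in jaw-D. Both jaw-D values were above both control values, with a log2 difference of 0.21 (95% interval 0.05 to 0.36, adjusted p 0.15). DER2.1, the derlin gene of this group, had a log2 difference of 0.22 (adjusted p 0.327).

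**Figure D2:**
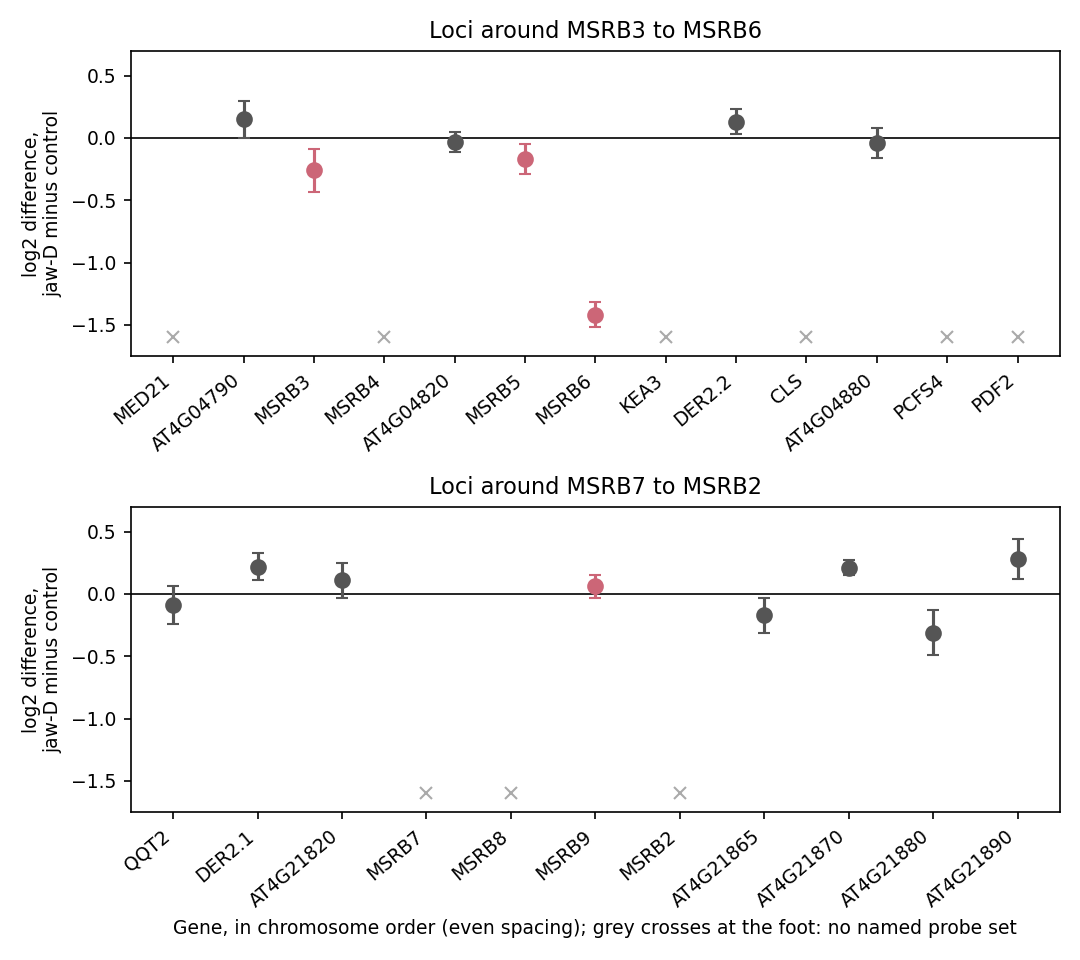
Log2 difference (jaw-D minus control, bars SE) of measured genes in chromosome order around the 2 tandem MSRB groups, with MSRB genes in red, other genes in grey and loci with no named probe set as crosses at the foot of each panel. MSRB6 lies at -1.42, and all other measured genes lie between -0.31 and 0.28.

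The 5 genes whose pattern over the 4 arrays was nearest to that of MSRB6 were picked by the Euclidean distance between log2 values centred on each gene's own mean. Over 13509 other probe sets with 1 gene the median distance was 1.44 and the highest 3.19. AT2G41090 was the nearest, at a distance of 0.13, with 26230 and 27980 units in control and 10193 and 10291 in jaw-D. AT3G28220 followed at 0.21, with 1623 and 1882 units in control and 545 and 551 in jaw-D. Their log2 differences of -1.38 and -1.27 were somewhat smaller in size than that of MSRB6. By linear group means, AT2G41090 was 2.65-fold and AT3G28220 3.2-fold lower in jaw-D, against 2.99-fold for MSRB6. The order of AT3G28220 and MSRB6 therefore depends on the scale, which understates the change of dim probe sets. AT5G12110 had 3776 and 3594 units against 1070 and 935 (log2 difference -1.61), and AT3G51660 had 3199 and 3231 against 1019 and 1142 (-1.35). LHCB4.3, a light-harvesting antenna gene of photosystem II, had 23272 and 20577 units in control and 7797 and 7986 in jaw-D (-1.44). These 3 lay at a distance of 0.22 each. A distance of this kind over 4 arrays mainly selects probe sets with a difference between the groups of like size, and these genes, chosen by it, carry no test.

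**Figure D3:**
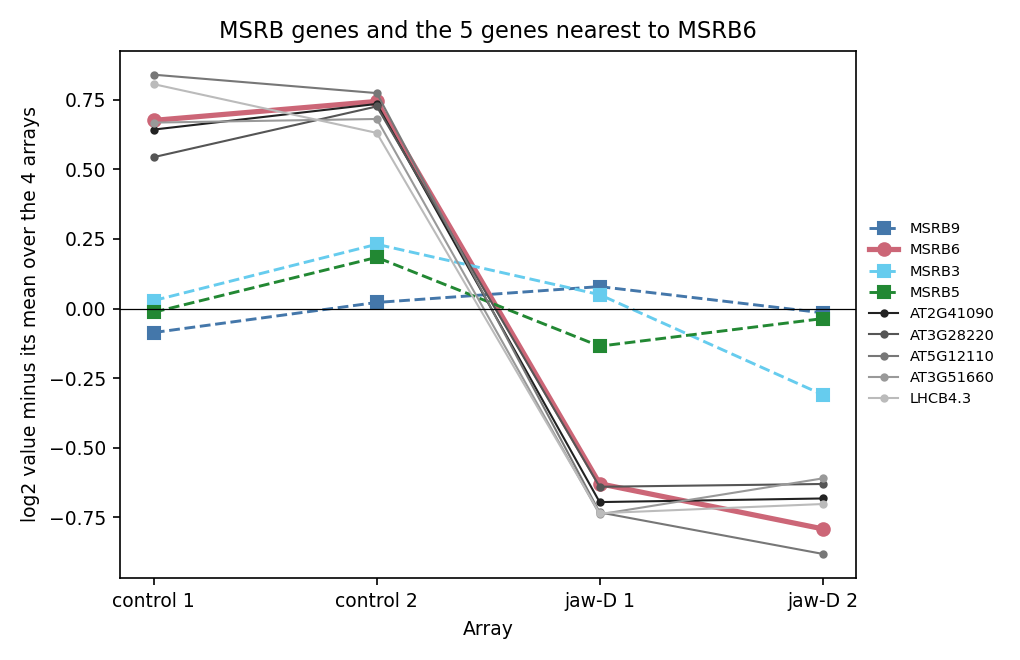
Log2 value minus its mean over the 4 arrays for the 4 MSRB genes and the 5 genes nearest to MSRB6; points are arrays, and lines only join the points of one gene. MSRB6 and the 5 nearest genes are high on both control arrays and low on both jaw-D arrays, while MSRB5 and MSRB9 stay between -0.135 and 0.184, and MSRB3 lies between -0.309 on jaw-D 2 and 0.231 on control 2.

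The genes that act beside MSRB enzymes were examined in lists of MSRA genes, electron donors, peroxiredoxins, scavengers of reactive oxygen and methionine metabolism. Of 98 listed genes 25 could be named. The lists were chosen with earlier results of these data known, so the shares below are a description and no enrichment is read from them. In the fit across all probe sets 4 of the 25 fell, beside 2.54% of all probe sets called lower, and 0 rose, beside 1.64% called higher. By limma without adjustment, 10 of the 25 were lower and 1 higher at p under 0.05, beside 9.79% and 10.1% of all probe sets. The median log2 difference was -0.14, and 19 of the 25 differences were negative, beside a median of 0.01 and 48.6% negative over all probe sets. None of the 25 was near background, whereas all probe sets include dim ones. With dim probe sets left out, 7 of the 25 were called. Of the 17071 probe sets then tested, 1134 were called lower and 979 higher. With each array centred on its median instead, where all probe sets together shifted to -0.06, the median of the 25 was -0.29 and 8 were called. In that setting 1226 of all 22746 probe sets were called, 978 of them lower, against 952 and 578 in the main fit.

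Of the A class, MSRA5 was the 1 of 5 genes that could be named. It had 2296 and 3071 units in control and 2276 and 2148 in jaw-D. Its lowest control value and its highest jaw-D value were almost the same. The log2 difference was -0.24 (95% interval -0.59 to 0.12, adjusted p 0.448), and it was -0.42 without control array 1 and -0.05 without control array 2.

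Among plastid thioredoxins and their reductases, the donors of electrons to plastid targets, 2 of 7 measured genes fell and 0 rose. Over all probe sets 2.54% were called lower and 1.64% higher. Without adjustment, limma put 5 of the 7 lower and 0 higher at p under 0.05, beside 9.79% and 10.1% of all probe sets. The median log2 difference of the 7 was -0.35. THX, thioredoxin x, a plastid thioredoxin that reduces peroxiredoxins, fell from 17411 and 17753 units to 11529 and 11143. Its log2 difference was -0.62 ± 0.06 (adjusted p 0.0187). The gene ty2, for the plastid thioredoxin y2, a donor to plastid methionine sulfoxide reductases, fell from 21281 and 21337 units to 15527 and 16392. Its log2 difference was -0.41 ± 0.06 (adjusted p 0.0335, and 0.0609 with the replicate number as a block). For both genes the 2 jaw-D values lay below the 2 control values by more than the spread within a group. The differences of the 5 that did not pass ran from -0.38 to 0.09, with adjusted p of 0.0571 to 0.786. The 3 leaf markers had log2 differences of -0.04 (RCA), -0.15 (LHCB4.1) and -0.19 (LHCB4.2, unadjusted p 0.0257, adjusted p 0.177 by limma). Their part in the result was not tested. Quantile normalisation gave LHCB4.1 the same value, 71210, on both jaw-D arrays. In deposited units RCA had 79465.2 and 64406.2 in control and 65815.6 and 65824.9 in jaw-D. LHCB4.1 had 83574.1 and 76379.3 against 69369.8 and 69448.1, and LHCB4.2 had 46300.1 and 43927.4 against 35645.1 and 37025.2. With values as deposited, the median log2 difference of the 7 genes in the plastid thioredoxin list was -0.4. Of the cytosolic thioredoxins and their reductases, 0 of 11 genes could be named.

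The list of glutaredoxins holds 10 genes of the CPYC and CGFS classes and none of the CC class. Of its 5 measured genes 1 fell and 0 rose. At an unadjusted p under 0.05 by limma, 2 of the 5 were lower and 0 higher. AT2G20270 had 12143 and 10934 units in control and 8454 and 8114 in jaw-D, so that the groups were well apart. Its log2 difference was -0.46 ± 0.08 (adjusted p 0.0392, and 0.0556 with the replicate block). The other 4 differed by -0.23 to 0.14.

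None of 3 measured genes in the list of peroxiredoxins, which remove peroxides with electrons from thioredoxins, passed the test (0 by limma, 1 at an unadjusted p under 0.05). AT3G52960 had 25717 and 28056 units in control and 20430 and 21406 in jaw-D, with a log2 difference of -0.36 (95% interval -0.54 to -0.18, adjusted p 0.061). It lay below control on both jaw-D arrays, and 4 of 11 alternative settings called it lower. PRXIIF, the mitochondrial peroxiredoxin, differed by -0.17 (adjusted p 0.441) and AT3G11630 by -0.11 (adjusted p 0.402).

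CCS, the copper chaperone that loads copper/zinc superoxide dismutases, was the 1 measured gene of 8 in its list. It fell from 9709 and 9118 units to 3645 and 5047, a log2 difference of -1.08 ± 0.15 (adjusted p 0.0275). None of 5 measured genes of the ascorbate and glutathione cycle passed (0 by limma, 1 at an unadjusted p under 0.05), with differences of -0.28 to -0.03. TAPX, the thylakoid ascorbate peroxidase, had 8459 and 8095 units in control and 6467 and 7119 in jaw-D (adjusted p 0.127). GR, a glutathione reductase gene, differed by -0.13 (adjusted p 0.7) and ATMDAR2, for monodehydroascorbate reductase, by -0.14 (adjusted p 0.71). For GR and ATMDAR2 the groups overlapped, and the interval reached from -0.47 to 0.22 for GR and from -0.52 to 0.25 for ATMDAR2. The sign turned for GR without control array 1 (0.08) and for ATMDAR2 without jaw-D array 2 (0.10). Of 8 genes for glutathione peroxidase-like enzymes, 0 could be named.

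Methionine metabolism gave 0 calls among 3 measured genes (limma, 1 at an unadjusted p under 0.05). MGL, methionine gamma-lyase, which breaks methionine down, had 332 and 417 units in control and 614 and 555 in jaw-D. The jaw-D values were both above the control values, with a log2 difference of 0.39 (95% interval 0.04 to 0.75, adjusted p 0.212). Its control mean of 375 units is just above the background level, and the size depends on the pseudocount, with 0.61 at 0.1 times and 0.18 at 4 times the main value. CBL, cystathionine beta-lyase of methionine synthesis, differed by 0.08 (adjusted p 0.758) and MMT, methionine S-methyltransferase, by 0.04 (adjusted p 0.869). Neither kept its sign: with each array centred on its median they differed by -0.02 and -0.04, and with 1 array left out by -0.04 to 0.21 (CBL) and -0.04 to 0.11 (MMT).

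**Figure D4:**
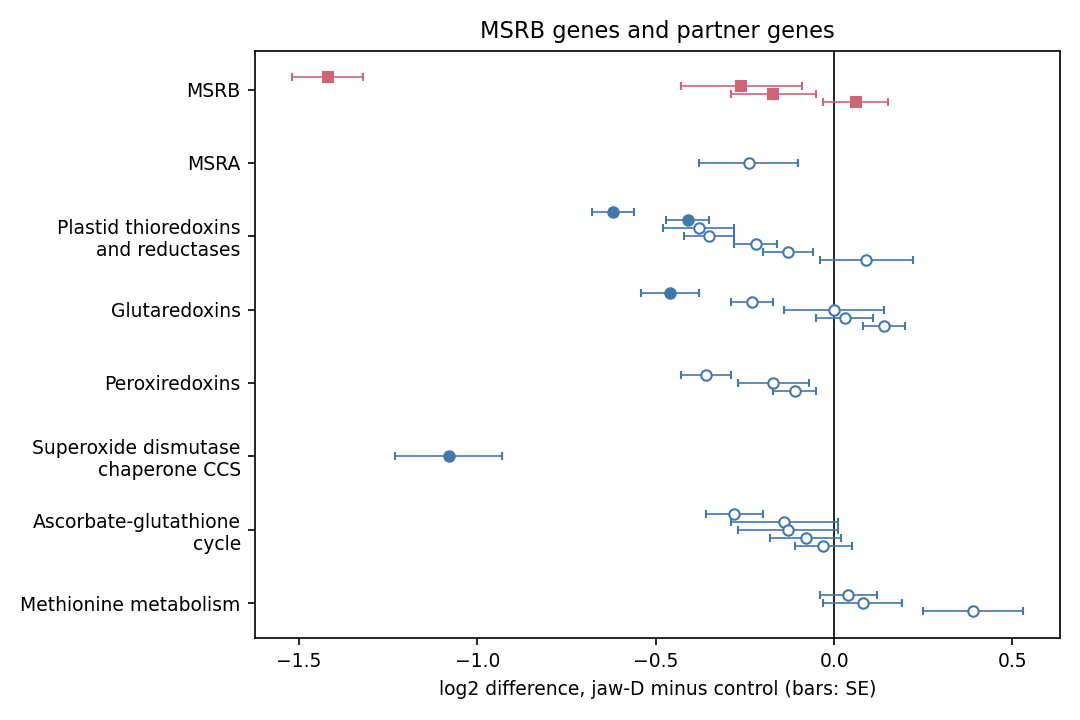
Log2 difference (jaw-D minus control, bars SE) of the 4 MSRB genes (red squares) and of 25 measured partner and pathway genes (blue circles, filled where the adjusted p is under 0.05). The 4 filled circles are THX at -0.62, ty2 at -0.41, AT2G20270 at -0.46 and CCS at -1.08. MSRB6 at -1.42 is lower than any circle, but it was taken up because of its large decrease.

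The 4 calls among partner genes were lost in limma when any 1 of control 1, control 2, jaw-D 1 or jaw-D 2 was left out, with 9 to 10 of the 25 at an unadjusted p under 0.05. Their adjusted p was then 0.119 to 0.183 for THX, 0.135 to 0.197 for ty2, 0.123 to 0.203 for AT2G20270 and 0.0878 to 0.196 for CCS. The differences of these genes stayed negative throughout. Without the variance trend none of the 4 passed (0 of the 25, and 10 at an unadjusted p under 0.05), with adjusted p of 0.0725 for THX, 0.118 for ty2, 0.116 for AT2G20270 and 0.0811 for CCS.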

How the data were processed

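The authors' deposited values are linear microarray intensities, with 1 value for a probe set on each array; the software behind them is not given in the sources used here, and equal trimmed means (2% at each end) show that the arrays had been scaled together. The 64 control probe sets were left out. The 22746 others were quantile normalised over the 4 arrays and taken as log2(value + 302.3), the pseudocount being the 25th percentile of the deposited values. Each was tested with limma (version 3.58.1 under R version 4.3.3, lmFit and eBayes, trend on), two-sided, with Benjamini-Hochberg adjustment over the whole table. The call rule was checked on simulated data with equal noise for every probe set and changes planted only in brighter ones. The planted changes were larger than those of THX, ty2 and AT2G20270. The check therefore does not cover changes of that size or noise that varies with intensity.

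Genes were named by the platform annotation and brought up to date through their identifiers in the TAIR10.1 gene table, which matched 13436 of 13513 probe sets with 1 gene. The 503 with several genes and the 8730 unnamed ones were tested but not named. Where a gene had more than 1 probe set, the brightest stood for it. The table served only for names and gene order. Promoters and proteins were not analysed here.

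The family, the lists and the tests were chosen with earlier results of these data known. Named were all members, the measured loci beside them, the 5 probe sets nearest to MSRB6, all MSRA genes, and in each list the members that passed or otherwise the 3 with the smallest p. Groups came from the sample titles. The labels do not state whether samples of a group were grown or extracted separately; the p-values therefore reflect the spread of these samples, which could be technical. The number of arrays limits the precision. The 11 alternatives covered scaling, pseudocount, variance trend, dim probe sets, a replicate block and each array left out.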

Additional observations from a re-analysis of the deposited data

How the results depend on the processing

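The limma fit called 952 probe sets, 39.3% of them higher in jaw-D. With each array centred on its median it called 1226, of which 20.2% were higher. Calls numbered 2113 with dim probe sets left out (17071 tested), 65 without the variance trend, 466 with the replicate block and 0 to 12 with 1 array left out. The 4 calls among partner genes became 8 with each array centred on its median, 7 without dim probe sets, 2 with the replicate block, 0 without the variance trend and 0 with any 1 array left out. The cause was not tested. The log2 difference of MSRB6 moved to -1.57 under a pseudocount of 0.1 times and to -1.09 under one of 4 times the main value, and was -1.51 to -1.35 with 1 array left out, and -1.45 to -1.35 under the other scalings. MSRB6 was called under the 7 alternatives that kept all 4 arrays. These are the arrays from which it was chosen, so nothing is read from these calls. The differences of MSRB3 and MSRB5 were negative and that of MSRB9 positive under all 11 alternatives. Deviations of same-numbered arrays from their group means correlated at -0.021 across probe sets, so the numbers were not taken as pairs; with the replicate block the log2 difference of MSRB6 was -1.42, and ty2 and AT2G20270 lost their calls.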
